A study of Mus musculus with 6 samples.

Results

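The phagocyte NADPH oxidase was followed here through 6 genes of the raw count table, Cybb, Cyba, Ncf1, Ncf4, Rac2 and Hvcn1, chosen by symbol from 53746 genes. Their RNA was measured by sequencing of whole cerebellum from 3 N153SLSL/LSLPcp2-cre mice, called Pcp2-cre mice, and 3 N153SLSL/LSL mice, called control mice, all at 2 months of age. Both genotypes are homozygous for a Sting1 N153S allele that a LoxP-Stop-LoxP cassette keeps silent, and only the Pcp2-cre mice also carry Cre, which the Pcp2 promoter drives in Purkinje cells. Mice with Pcp2-cre but without the N153S allele were not analysed here, so Cre itself and the N153S mutant cannot be told apart. Each genotype had 2 males, mice 1 and 2, and 1 female, mouse 3, and all mice were perfused with PBS before the tissue was frozen.

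This oxidase is the enzyme with which phagocytes make superoxide. In the membrane, Cybb (gp91phox, also called NOX2) passes electrons from NADPH to oxygen, and Cyba (p22phox) pairs with it and keeps it stable. At rest other subunits lie in the cytosol, where Ncf1 (p47phox) is the organizer and Ncf4 (p40phox) a lipid-binding partner. On activation they join the membrane pair together with a Rac GTPase, which is Rac2 in blood cells. Hvcn1 is a voltage-gated proton channel that carries out the protons that the enzyme leaves behind in the cell. In the brain, microglia are known as the main site of the NOX2 enzyme.

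Total counts lay between 6733178 and 10178218 per mouse, replicates differed by more than sampling noise (chi-square per gene of 1.35 to 3.39), and Xist followed the labelled sex in all 6 mice. Sting1 had a mean of 25.5 ± 2.09 CPM (counts scaled to library size, SD, n = 3) in control and 38.0 ± 5.55 CPM in Pcp2-cre mice, a log2 fold change of 0.57 (SE 0.0969, edgeR quasi-likelihood test, adjusted p = 3.59e-04). The counts do not separate RNA of the N153S allele from other Sting1 RNA, or Purkinje cells from other cells. In public single-cell data the paper found Sting1 mRNA in microglia alone, with little or none in neurons. By staining, however, it detected STING protein in Purkinje cells of wild-type cerebellum, and it holds staining to be the more reliable guide. It also reported more STING protein in Purkinje cells of Pcp2-cre mice, with no such increase in microglia or other neurons. Which cells gave the Sting1 difference was not tested. The libraries held cerebellar markers, and the summed level of 8 Purkinje cell genes was 6418 to 6977 CPM in control and 3619 to 3961 CPM in Pcp2-cre mice. Control mice 1 and 2 stood apart in choroid plexus genes, 8 of which summed to 806 and 1246 CPM, against 32.5 CPM in control mouse 3 and 24.2 to 86.6 CPM in Pcp2-cre mice.

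The members lie on 4 chromosomes (GRCm39, Gencode M39). Cybb is on chromosome X from 9301491 to 9354010 on the minus strand, Cyba on chromosome 8 from 123150422 to 123159706 on the minus strand, and Ncf1 on chromosome 5 from 134248907 to 134258479 on the minus strand. Hvcn1 is also on chromosome 5, from 122344867 to 122382736 on the plus strand. Ncf4 (78128982 to 78146784, plus strand) and Rac2 (78443367 to 78457429, minus strand) share chromosome 15, with 296582 bp and 10 protein-coding genes between them.

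The promoters of the membrane pair are shown because the RNA of both genes was higher in Pcp2-cre mice while their sequences are unlike in composition. They are 300 bases of RefSeq promoter sequence, from 250 bases before the start to 50 after it, given in the table for GRCm38.p6 and found once each in GRCm39, at chrX:9335514-9335813 and chr8:123159630-123159929, both on the minus strand. Capitals mark the only match to the letters GAGGAA, a core of the kind that ETS factors such as PU.1 bind, searched on both strands.
Cybb: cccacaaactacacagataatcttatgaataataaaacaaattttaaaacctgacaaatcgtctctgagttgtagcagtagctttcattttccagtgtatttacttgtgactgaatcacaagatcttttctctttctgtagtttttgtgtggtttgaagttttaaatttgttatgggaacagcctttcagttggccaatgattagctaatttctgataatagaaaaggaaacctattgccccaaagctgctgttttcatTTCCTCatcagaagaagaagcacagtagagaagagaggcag
Cyba: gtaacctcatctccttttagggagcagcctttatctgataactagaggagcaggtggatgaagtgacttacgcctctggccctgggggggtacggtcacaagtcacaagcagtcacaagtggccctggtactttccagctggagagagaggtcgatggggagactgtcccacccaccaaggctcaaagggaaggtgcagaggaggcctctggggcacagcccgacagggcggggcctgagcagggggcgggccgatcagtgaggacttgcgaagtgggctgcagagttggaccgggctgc
The Cybb window was 35.3% G or C and the Cyba window 60.7%, with a median of 52.7% over 32851 promoters of this length. The match in Cybb reads TTCCTC, lies on the opposite strand and begins at base 260 of the window, after the start. The Cyba window held none, and neither did that of Ncf1, the other member in the table, which was 54.0% G or C. GAGGAA occurred in 28.3% of all promoters, so a match in 1 of 3 is near that share. Ncf4, Rac2 and Hvcn1 had no entry in the promoter table.

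Members of the membrane pair were both higher in Pcp2-cre mice, Cybb by the larger fold. In control mice 1, 2 and 3, Cybb reached 10, 7 and 13 counts, against 35, 26 and 33 counts in Pcp2-cre mice 1, 2 and 3. Scaled to library size these were 1.25, 1.04 and 1.29 CPM in control and 4.61, 3.00 and 4.88 CPM in Pcp2-cre mice. The genotypes did not overlap, and the lowest Pcp2-cre value was that of mouse 2. The means were 1.19 ± 0.132 and 4.16 ± 1.02 CPM (SD, n = 3), and the log2 fold change was 1.75 (SE 0.281, 95% interval 1.17 to 2.34, edgeR adjusted p = 2.04e-04).

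Cyba had 27, 22 and 29 counts in control and 41, 49 and 60 counts in Pcp2-cre mice. Its levels were 3.37, 3.28 and 2.87 CPM in control and 5.40, 5.66 and 8.88 CPM in Pcp2-cre mice. Again the genotypes did not overlap, and the female Pcp2-cre mouse stood above the males. The means were 3.17 ± 0.263 and 6.64 ± 1.94 CPM (SD, n = 3), with a log2 fold change of 1.06 (SE 0.223, 95% interval 0.59 to 1.52, edgeR adjusted p = 0.00332). In males alone it was 0.73 with an edgeR adjusted p of 0.0878, no longer past the threshold, while Cybb kept its call at 1.69 (adjusted p = 0.00261).

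Ncf1, the organizer, rose least of the 3 called members. It had 22, 21 and 32 counts in control and 41, 46 and 37 counts in Pcp2-cre mice, or 2.74, 3.13 and 3.17 against 5.40, 5.31 and 5.47 CPM. The Pcp2-cre mice were close to each other and all above the control mice. The means were 3.01 ± 0.234 and 5.39 ± 0.0824 CPM (SD, n = 3), with a log2 fold change of 0.83 (SE 0.198, 95% interval 0.42 to 1.25, edgeR adjusted p = 0.00922). The size was kept but the call was lost with DESeq2 (0.83, adjusted p = 0.163). With control mouse 3 as the lone control, the log2 fold change of Ncf1 was 0.76. That setting leaves out both controls rich in choroid plexus genes. They are also both male controls, so it cannot tell that difference from sex. Against that lone control, Cybb had a log2 fold change of 1.66 and Cyba 1.18.

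Ncf4 was near the limit of detection, with 1, 3 and 5 counts in control and 8, 3 and 6 counts in Pcp2-cre mice. A floor of 3 counts came to 0.295 to 0.446 CPM in these libraries, and the Ncf4 means were 0.356 ± 0.201 and 0.763 ± 0.370 CPM (SD, n = 3). The genotypes overlapped. Ncf4 did not pass the filter on low counts. Without that filter its log2 fold change was 0.99 with a 95% interval from -0.16 to 2.15 (edgeR adjusted p = 0.558), and an exact permutation test on CPM gave p = 0.30 (two-sided), so a difference was not detectable at this depth.

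Rac2 had 5, 5 and 8 counts in control and 14, 17 and 7 counts in Pcp2-cre mice, and it too failed the filter. In CPM the control mice were at 0.624, 0.744 and 0.793 and the Pcp2-cre mice at 1.84, 1.96 and 1.04. The genotypes did not overlap, with the female Pcp2-cre mouse nearest to the controls. The ratio of the means was 2.24, and the exact permutation test gave p = 0.10 (two-sided), the smallest that 3 against 3 mice allow. Without the filter the log2 fold change was 1.15 (SE 0.395, 95% interval 0.38 to 1.93, edgeR adjusted p = 0.0636). It passed the threshold only when Pcp2-cre mouse 3 was left out (1.37, adjusted p = 0.0470), the one setting of those run that did so.

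Hvcn1, the proton channel, had the smallest log2 fold change of the tested members. There were 95, 87 and 115 counts in control and 120, 138 and 124 counts in Pcp2-cre mice, which is 11.9, 12.95 and 11.4 against 15.8, 15.9 and 18.3 CPM. All Pcp2-cre mice were above all control mice. The means were 12.1 ± 0.802 and 16.7 ± 1.43 CPM (SD, n = 3), and the log2 fold change was 0.47 (SE 0.112, 95% interval 0.24 to 0.71, edgeR adjusted p = 0.00922). The fold lay just under the threshold of 0.5, so Hvcn1 was not called, although its adjusted p was past 0.05. It was past both thresholds without control mouse 2 (0.52, adjusted p = 0.0125), without Pcp2-cre mouse 1 (0.50, adjusted p = 0.0206), without Pcp2-cre mouse 2 (0.50, adjusted p = 0.0311), with a choroid plexus score as covariate (0.57, adjusted p = 0.0174) and against control mouse 3 alone (0.54, adjusted p = 0.0391). Its adjusted p missed 0.05 without Pcp2-cre mouse 3 (0.0650), in males alone (0.161), with DESeq2 (0.144) and with limma on log2 FPKM with a pseudocount of 1 (0.144) or 0.1 (0.151).

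**Figure D1:**
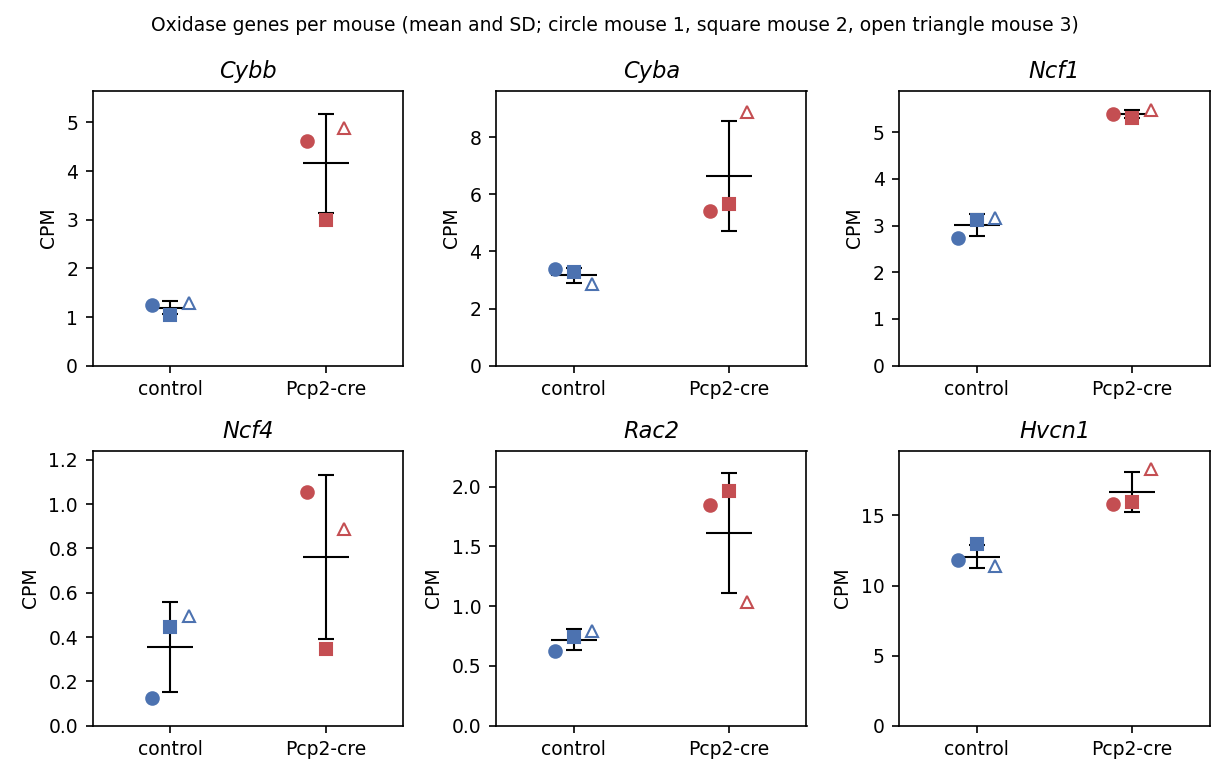
Level of each of the 6 genes in CPM (counts scaled to library size, linear axis from 0) in each of 3 control and 3 Pcp2-cre mice, with the mean and SD as black lines, circles and squares for the males and open triangles for the females. Every Pcp2-cre mouse lies above every control mouse in all panels except that of Ncf4, where Pcp2-cre mouse 2 lies among the controls.

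Of the 6 genes, 4 could be tested and 3 were called higher in Pcp2-cre mice, with a background of 233 of 16961 tested genes (1.37%) called higher and 1.79% called lower. Cybb reached the filter's cutoff of 1.27 CPM in 1 control and 3 Pcp2-cre mice, so it entered the test through the group in which it was higher. At any fold change the shares of all tested genes past an adjusted p of 0.05 were 2.99% higher and 4.75% lower in Pcp2-cre mice, and 4 of the 6 genes were among the first. Non-overlap with Pcp2-cre mice above was seen in 5 of the 6 genes and in 10.8% of all tested genes. The median log2 fold change of all tested genes was 0.0045.

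A value from whole tissue mixes all of its cells, so more cells of a type and more RNA per cell cannot be told apart. By staining of older mice, the paper saw no significant genotype difference in the number of IBA1-positive microglia. It did see more cells with the activation marker CD68 in the cerebellum of Pcp2-cre mice of that age. In the younger mice sequenced here, microglial genes were higher in Pcp2-cre than in control mice. Of 10 microglial markers 7 were called higher and none lower, beside 1.37% and 1.79% of all tested genes. The summed level of the 10 was 109 to 113 CPM in control and 252 to 272 CPM in Pcp2-cre mice. Cx3cr1, the fractalkine receptor, had a log2 fold change of 1.48 (edgeR adjusted p = 1.12e-09). The homeostatic markers P2ry12 (0.28), Tmem119 (0.06) and Siglech (0.15) did not pass the test, with edgeR adjusted p values of 0.495, 0.922 and 0.766.

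Neutrophils and monocytes also use this oxidase, and the summed levels of their markers were low. None of 10 neutrophil markers passed the filter on low counts, Ly6g had 0 counts in every mouse, and the summed level was 1.39 to 4.24 CPM in control and 1.33 to 5.27 CPM in Pcp2-cre mice. In the fit without the filter S100a9, a calprotectin subunit of neutrophils and other myeloid cells, passed the thresholds, with 8, 3 and 2 counts in control and 18, 12 and 4 counts in Pcp2-cre mice, which overlap (log2 fold change 1.45, edgeR adjusted p = 0.0216). None of 5 monocyte markers passed it either, with sums of 0.596 to 1.87 and 0.888 to 1.96 CPM. Of 7 border macrophage markers 5 were tested and 0 were called by edgeR or DESeq2, with 0 at an unadjusted edgeR p under 0.05, and their sums were 12.2 to 15.0 CPM in control and 13.7 to 18.4 CPM in Pcp2-cre mice. None of 6 T cell markers passed the filter, and of 6 B cell markers 1 was tested, Ebf1, with a log2 fold change of -0.42. The part of any cell type in the oxidase values was not tested.

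Within a mouse, each tested member was set against the mean log2 CPM of the 10 microglial genes, which was itself 1.17 higher in Pcp2-cre mice. Relative to that mean, Cybb was at -2.05, -2.33 and -2.17 log2 units in control mice and at -1.47, -1.94 and -1.48 in Pcp2-cre mice. Its relative level was higher by 0.55 (SE 0.176), with no overlap between genotypes. The single microglial genes had log2 fold changes from 0.06 (Tmem119) to 2.89 (Fcrls). The 1.75 of Cybb lay within that range, above their mean but below Fcrls and Aif1 (1.94). The relative level of Cyba differed by -0.16 (SE 0.215), less than its error, and its genotypes overlapped. Ncf1 was lower relative to the microglial genes by -0.34 (SE 0.0703) and Hvcn1 by -0.71 (SE 0.102), both with no overlap. These values rest on counts alone. For Hvcn1 the ratio of the genotype means was 1.38 in CPM but 2.89 in FPKM, and its relative level was not computed in FPKM. Two-sided exact permutation tests gave p = 0.10 for Cybb, Ncf1 and Hvcn1, the smallest that 3 against 3 mice allow, and p = 0.70 for Cyba, and adjusted over the 4 genes these were 0.133 and 0.70, so none of these relative differences passed a threshold.

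**Figure D2:**
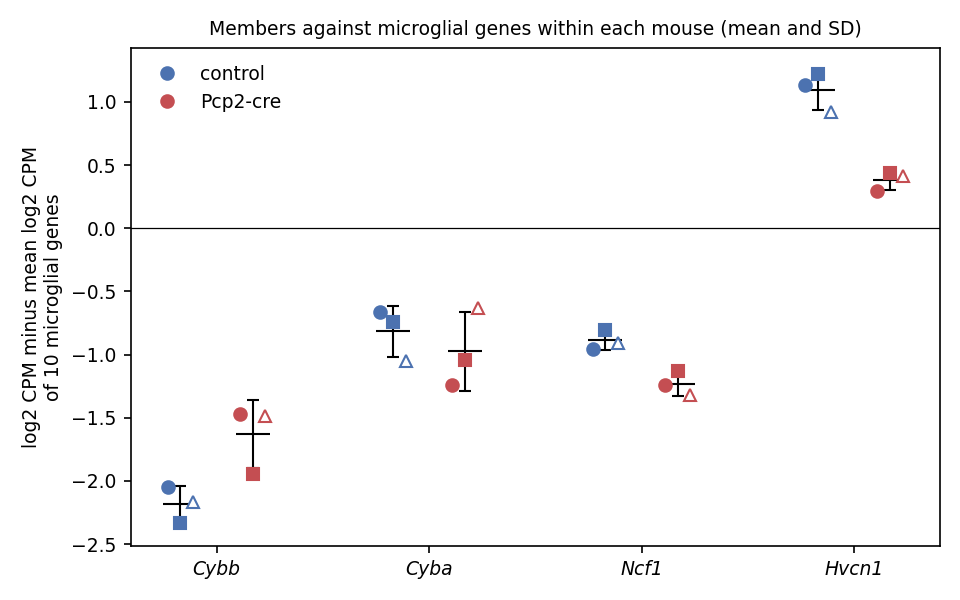
Log2 CPM of the 4 tested members minus the mean log2 CPM of 10 microglial genes in the same mouse, for 3 control (blue) and 3 Pcp2-cre (red) mice, with mean and SD as black lines and open triangles for the females. On this count scale Cybb sits higher in the Pcp2-cre mice, Ncf1 and Hvcn1 sit lower, and the 2 genotypes of Cyba overlap. For Hvcn1 the counts and FPKM differed.

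The members were also compared in 6 pairs by their log2 difference within each mouse. Relative to Ncf1, Cybb was 0.90 (SE 0.241) higher in Pcp2-cre than in control mice, and relative to Hvcn1 1.26 (SE 0.237) higher. Cyba differed by -0.71 (SE 0.257) relative to Cybb and by 0.55 (SE 0.167) relative to Hvcn1. Ncf1 differed by 0.36 (SE 0.0992) relative to Hvcn1. These 5 pairs did not overlap between genotypes and had p = 0.10 by a two-sided exact permutation test (0.12 adjusted over 6 pairs). Cyba and Ncf1 differed by 0.19 (SE 0.250, exact permutation p = 0.60), with overlap, and by -0.03 without Pcp2-cre mouse 3. All pairs rest on counts, which for Hvcn1 differed from FPKM.

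Levels of different genes were compared in FPKM, which divides fragments by exon length and library size, from the second deposited table. On this scale Cyba was the most abundant member. It had an FPKM of 3.45, 3.23 and 4.04 in control mice against 7.85, 7.59 and 9.86 in Pcp2-cre mice. Its mean FPKM was 3.58 ± 0.420 and 8.44 ± 1.24 (SD, n = 3), which made up 67.5% and 68.2% of the summed FPKM of the 6 genes. Ncf1 came next, at 0.838 ± 0.113 and 1.42 ± 0.136 FPKM. After it came Hvcn1 at 0.303 ± 0.159 and 0.874 ± 0.355 FPKM and Cybb at 0.221 ± 0.0244 and 0.657 ± 0.0675 FPKM. The lowest were Rac2 at 0.181 ± 0.0234 and 0.497 ± 0.125 FPKM and Ncf4 at 0.174 ± 0.168 and 0.484 ± 0.306 FPKM, with Ncf4 listed at 0 in control mouse 1.

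The order of the FPKM means was the same in both genotypes. In control mice Cyba was apart from Ncf1 and Ncf1 from Hvcn1, whereas Hvcn1, Cybb, Rac2 and Ncf4 each overlapped their neighbour in the order. In Pcp2-cre mice only Cyba was apart from its neighbour, since the ranges of Ncf1 and Hvcn1 overlapped too. The catalytic subunit Cybb was listed at a lower FPKM than its partner Cyba in every mouse. The summed FPKM of the 6 genes was 5.29 ± 0.429 in control and 12.4 ± 1.70 in Pcp2-cre mice (SD, n = 3). The lead of Cyba over Ncf1 and its share of the sum depended on the scale. In CPM per kilobase of exon, Cyba was at 1.38 in control and 2.88 in Pcp2-cre mice, and Ncf1 at 0.823 and 1.47. Cyba had 0.355 CPM per FPKM and kilobase of exon, against a median of 0.693 over the tested genes.

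The FPKM table and the counts differed most for Hvcn1. In CPM per kilobase of exon its mean was 2.03 in control and 2.81 in Pcp2-cre mice, beside 1.38 and 2.88 for Cyba, so on that scale it was the highest member in control mice. Its FPKM was 0.128, 0.439 and 0.341 in control and 0.742, 0.603 and 1.28 in Pcp2-cre mice, without overlap, and the ratio of the means was 2.89 in FPKM against 1.38 in CPM. For Cybb the ratios were 2.97 and 3.49, for Cyba 2.36 and 2.09, for Ncf1 1.69 and 1.79, for Rac2 2.75 and 2.24 and for Ncf4 2.78 and 2.14, in FPKM and CPM respectively. Exact permutation tests on FPKM gave p = 0.10 (two-sided) for each of these genes but Ncf4, which had p = 0.20.

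Hvcn1 shares 2609 bp of its exons, 43.9%, with Tctn1 on the opposite strand, a gene of the ciliary transition zone. Its CPM per FPKM and kilobase of exon was 4.12, against a median of 0.693 over the tested genes, and above 93.4% of them. Tctn1 had 210 to 331 counts in control and 250 to 316 counts in Pcp2-cre mice, with a log2 fold change of 0.17 (SE 0.0780, edgeR adjusted p = 0.238). Whether the counting used strand is not given in the sources used here, so reads of Hvcn1 and Tctn1 cannot be told apart and both scales of Hvcn1 are uncertain. Exon overlaps on the opposite strand were smaller for Cyba (423 bp with Il17c), Ncf1 (574 bp with Gtf2ird2), Cybb (304 bp with Xk) and Rac2 (86 bp with Gm63166), and Ncf4 had 0 bp. Neither Xk (-0.04, edgeR adjusted p = 0.813) nor Gtf2ird2 (-0.06, adjusted p = 0.777) passed the test, and Il17c had at most 2 counts in any mouse.

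**Figure D3:**
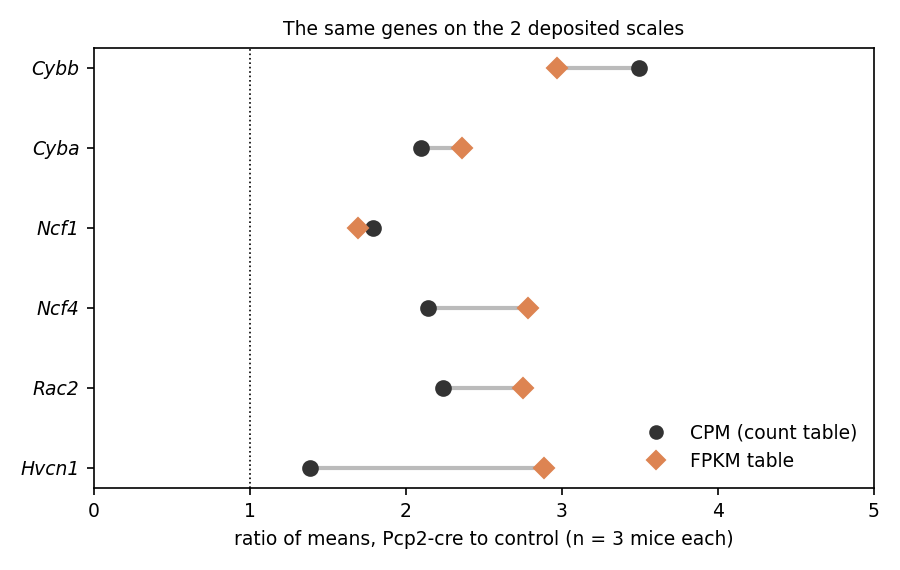
Ratio of the Pcp2-cre mean to the control mean (linear axis, n = 3 mice each) for each gene in CPM from the count table (circles) and in FPKM from the other table (diamonds), with the dotted line at a ratio of 1. All ratios exceed 1, and the gap between scales is widest for Hvcn1, at 1.38 in CPM and 2.89 in FPKM.

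The partners and paralogs named here did not pass the test. Cybc1, a chaperone that the Cybb and Cyba pair needs, was at a log2 fold change of -0.08 (SE 0.0844, edgeR adjusted p = 0.693) and Rac1, the Rac of most tissues, at 0.00 (SE 0.041). Rac1 shares 2682 bp of its exons, 56.1%, with Daglb on the opposite strand, so its counts carry the same limit as those of Hvcn1.

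The neuronal Rac3 had a log2 fold change of 0.06 and Nox1, the colon-type catalytic paralog, 0.21 (edgeR adjusted p = 0.448). However, 564 bp of the Nox1 exons are shared with Cstf2, and the 2 scales differed. The Nox1 means were 13.1 and 15.3 CPM, but 0.0910 and 0.0313 FPKM, in control and Pcp2-cre mice. Nox3, the inner ear paralog, had 0 counts in every mouse, and Nox4, the constitutively active paralog, had at most 3 counts. Of the 13 listed partners and paralogs, 7 were tested, 1 was called higher and 0 were called lower. Of all tested genes 1.37% were called higher and 1.79% lower. The median log2 fold change over the 7 was 0.12. DESeq2 also called 1 higher and 0 lower, beside 141 higher and 226 lower of 30470 genes with a count. At an unadjusted edgeR p under 0.05, 1 was higher and 0 were lower, and the share of all genes at that p is not given here.

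**Figure D4:**
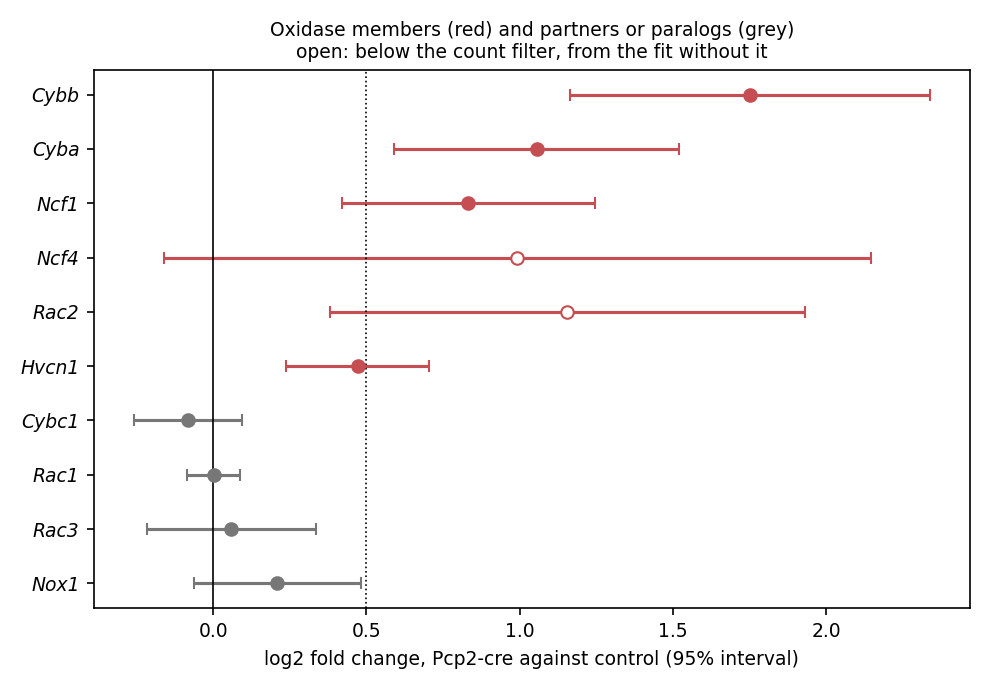
Log2 fold change of Pcp2-cre against control mice with its 95% interval for the 6 members (red) and for 4 partners or paralogs (grey), with open circles for the 2 genes under the count filter, taken from the fit without it. The intervals of Cybb, Cyba, Ncf1, Rac2 and Hvcn1 lie above 0, that of Ncf4 spans it, and those of Cybc1, Rac1, Rac3 and Nox1 include it.

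Of 18 genes that act on assembly of the oxidase, all tested, 4 were called higher and 0 lower by edgeR. Of all tested genes 1.37% were called higher and 1.79% lower. The median log2 fold change of the 18 was 0.07. DESeq2 called 3 higher and 0 lower, beside 141 higher and 226 lower of 30470 genes with a count. Those 30470 include genes that DESeq2 left without an adjusted p, so they are not all tested genes. At an unadjusted edgeR p under 0.05, 6 were higher and 3 lower. The share of all genes at that unadjusted p is not given here. Arhgap25, a Rac GTPase-activating protein of blood cells, had 7, 7 and 8 counts in control and 25, 34 and 25 counts in Pcp2-cre mice (log2 fold change 2.02, SE 0.283, edgeR adjusted p = 3.89e-05). Vav1 and Dock2, exchange factors for Rac in blood cells, had 1.97 and 1.71. Pik3cg, the gamma catalytic subunit of PI3-kinase, had 1.23. Arhgap25 lay below the filter's cutoff of 1.27 CPM in all control mice (0.873, 1.04 and 0.793 CPM). Vav1 and Pik3cg lay below it in control mice 2 and 3, and Dock2 in control mouse 1. These called genes thus entered the test through the group in which they were higher, as Cybb did. Prkca, a kinase that can phosphorylate Ncf1, and Vav3, another Rac exchange factor, were lower, at -0.31 and -0.50, with edgeR adjusted p past 0.05 and a fold under the threshold.

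Genes that remove reactive oxygen were mostly not called. The median log2 fold change of the 22, all tested, was 0.04. At an unadjusted edgeR p under 0.05, 6 were higher and 1 lower, and the share of all genes at that p is not given here. DESeq2 called 0, beside 141 higher and 226 lower of the same 30470 genes with a count. By edgeR 1 was called higher and 0 lower, beside 1.37% and 1.79% of all tested genes. That gene was Hmox1, heme oxygenase, with 22, 15 and 29 counts in control and 39, 41 and 32 counts in Pcp2-cre mice (log2 fold change 0.87, SE 0.211, edgeR adjusted p = 0.0102), a call that was lost without control mouse 2 and against control mouse 3 alone. The peroxiredoxins Prdx6 (0.24) and Prdx1 (0.17) and the cystine transporter gene Slc7a11 (0.40) had an adjusted p past 0.05 under the fold threshold. At any fold change 4 of the 22 were thus higher, beside 2.99% of all tested genes, and 9 of the 22 did not overlap with Pcp2-cre mice above, beside 10.8%.

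The genes whose profile over the 6 mice was nearest to that of Cybb, by the root mean square difference of log2 CPM after centring on the control mean, were Slc11a1, Csf3r, Ptprc, Aif1 and Gpr34, at 0.171, 0.187, 0.192, 0.209 and 0.222. Slc11a1 is a phagosomal metal transporter, Csf3r the receptor for G-CSF, Ptprc the CD45 phosphatase, Aif1 the IBA1 protein and Gpr34 a microglial receptor. Their log2 fold changes were 1.85, 1.86, 1.81, 1.94 and 1.85, against 1.75 for Cybb, a closeness that follows from how they were chosen. Among 16960 genes, Cyba ranked 92nd, Ncf1 148th and Hvcn1 510th in nearness to Cybb.

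The difference between the sexes could be set only as 1 female against 2 males per genotype. The Pcp2-cre effect in the female minus that in the males was 0.89 on the log2 scale for Cyba (95% interval 0.02 to 1.76), 0.22 for Cybb, -0.09 for Ncf1 and 0.33 for Hvcn1. None passed the edgeR interaction test, with adjusted p values of 0.905 to 0.998.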

How the data were processed

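Poly A-enriched cerebellar libraries of 6 mice were sequenced as paired reads. The authors trimmed and aligned them to GRCm39 with STAR, counted Gencode genes with featureCounts and StringTie, and deposited raw counts per gene and a separate table of FPKM. Tool versions, the handling of strand and that of multi-mapped reads are not given in the sources used here.

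A quasi-likelihood test in edgeR 4.0.16 (R 4.3.3, TMM scaling) was run on the 16961 genes that filterByExpr retained. Calls needed both a Benjamini-Hochberg adjusted p up to 0.05 and an absolute log2 fold change from 0.5. Log2 CPM used a prior count of 0.5. SciPy 1.17.1 gave exact permutation tests. Alternatives were DESeq2 1.42.0, limma 3.58.1 on log2 FPKM with a pseudocount of 1 or 0.1, other scalings, filters and thresholds, covariates, a replicate block and each mouse left out. Males alone and control mouse 3 as the lone control, and permutation tests of CPM, were added after seeing the data.

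Members and gene lists were chosen with earlier results of these data known. Named genes are the members, called genes of the lists, fixed partners and paralogs, the 5 genes nearest to Cybb, markers, Sting1 and genes overlapping a member. Vav3, Prkca, Prdx1, Prdx6 and Slc7a11, past an adjusted p of 0.05 below the fold threshold, were named after their values were seen. Some single genes of these lists are not reported here. Scripts were tested on simulated counts. A floor of 3 counts covers counting error only.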

Additional observations from a re-analysis of the deposited data

How the results depend on the processing

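The 3 calls among the 6 oxidase genes numbered 2 to 4 when 1 mouse was left out in turn, 2 with DESeq2 and 1 with limma on log2(FPKM + 1), where the Cybb fold change fell under the threshold (0.44). Leaving out mice gave log2 fold changes of 0.81 to 1.18 for Cyba, 1.63 to 1.96 for Cybb, 0.77 to 0.88 for Ncf1 and 0.40 to 0.52 for Hvcn1. Over all settings the Ncf1 adjusted p ranged from 0.00402 to 0.163, and it missed the threshold also with a choroid plexus score as covariate (0.0989), on FPKM (0.0788 and 0.0903) and without control mouse 1 (0.0567). The adjusted p of Hvcn1 ranged from 0.00378 to 0.161. The 6 called genes of the 3 pathway lists were 3 with at least 10 counts in every mouse, 3 with the choroid plexus score and 3 against control mouse 3 alone. Partners and paralogs gave 0 calls with the choroid plexus score and against control mouse 3 alone. Assembly genes gave 1 call with at least 10 counts in every mouse. Of the 22 genes that handle reactive oxygen, 0 were called with DESeq2, the choroid plexus score, either FPKM pseudocount, control mouse 3 alone or a log2 threshold of 1, 4 at any fold change, and 0 to 2 with 1 mouse left out. Against a shorter reference of 3 microglial genes, the Ncf1 relative difference was -0.43. The Cybb ratio of 2.97 in FPKM was 3.49 in CPM per kilobase. The filter of 10 counts and the lone control test fewer genes or mice. That lone mouse is the only female control and is assumed to vary like the Pcp2-cre mice. Counts at another fold threshold changed with the cutoff itself. A pseudocount of 1 is larger than the Cybb means of 0.221 and 0.657 FPKM in control and Pcp2-cre mice, which lowers its log2 fold change. With a pseudocount of 0.1 it was 1.23. The cause of the remaining changes was not tested. The difference between Cyba and Ncf1 within a mouse, 0.19 with all mice, was -0.03 without Pcp2-cre mouse 3; no other direction reversed in any setting run. Same-numbered mice correlated at 0.0645, 0.0770 and 0.224 in their deviations, so the numbers were not taken as pairs, and with a replicate block 3 members and 6 pathway genes were called. Low counts limit precision, with summed counts over 3 mice of 30 for Cybb and 18 for Rac2 in control mice, and of 9 in control and 17 in Pcp2-cre mice for Ncf4.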
